A study of Homo sapiens with 12 samples.

Results

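Transcript levels in OCI-Ly7 cells after ibrutinib treatment at the low dose, 1 μM, were compared with those after vehicle treatment. OCI-Ly7 is an established human cell line that came from a diffuse large B-cell lymphoma. The arrays were chosen by their sample titles and descriptions, which name the compound and the dose: 3 arrays of 1 μM ibrutinib and 3 arrays of vehicle, lettered A, B and C in each group, 6 of the 12 arrays of the experiment. The other 6 arrays hold cells treated with 10 μM ibrutinib or with the Btk inhibitor PLS-123, and they serve here only to estimate the spread and, for 10 μM ibrutinib, to give values side by side. All cells were grown in DMEM with serum and treated for 24 hours, and the labels name no stimulation of the B-cell receptor and no solvent for the vehicle. Whether the 3 samples within each group came from different cultures is not given, so every p-value measures only the spread between these samples, which may be technical. Of 54675 probe sets on the array, 62 controls were set aside and 54613 were compared.

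Btk is a cytosolic kinase that relays the signal of the B-cell receptor (BCR) to phospholipase C-gamma-2, and from there to calcium, NF-kB and ERK signaling. Ibrutinib binds covalently to a cysteine in the active site of Btk and can bind other kinases that carry a cysteine at the same place, such as BLK, TEC, JAK3 and EGFR. Loss of the BCR signal is known to alter the transcription of genes for B-cell activation, survival, adhesion and antigen presentation in dependent B-cell lymphomas.

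Each transcript is read by 1 or more probe sets, whose value is an intensity, used here as log2. A log2 fold change is the mean of the 3 ibrutinib arrays minus the mean of the 3 vehicle arrays, given ± its standard error, and 0.58 corresponds to 1.5-fold. It was tested with limma over all 12 arrays, and adjusted p means adjustment by the Benjamini-Hochberg method over the 54613 probe sets. A probe set is called dim when its mean over the 12 arrays lies under 3.87, the median of all. Each of 19775 genes is represented by the brightest of its probe sets, and 12040 of these were not dim.

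The cells carried B-cell transcripts in both groups. All 8 B-cell markers measured, among them MS4A1, CD79A and CD22, were not dim, and their summed intensity ran between 17639 and 18116 on the ibrutinib arrays and between 17869 and 18604 on the vehicle arrays. The summed intensity of 9 T-cell and NK-cell markers ran between 87.8 and 92.1 with ibrutinib and between 85.9 and 95.2 with vehicle, and 7 of them, with CD3D, CD2 and NKG7, were dim. For 6 myeloid markers, 5 of them dim, the sums ran between 49.5 and 54.5 with ibrutinib and between 50.9 and 54.3 with vehicle. For 11 stromal and epithelial markers, 7 of them dim, the sums ran between 519 and 535 with ibrutinib and between 513 and 563 with vehicle.

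Array A of the ibrutinib group stood apart from the other arrays. Among probe sets that were not dim, 551 were more than 1.5-fold higher and 71 more than 1.5-fold lower on it than the mean of ibrutinib arrays B and C. For ibrutinib array B the counts were 151 higher and 280 lower, and for array C 22 higher and 49 lower. The 3 vehicle arrays each had between 13 and 66 probe sets higher and between 25 and 74 lower by that measure. The log2 difference between the 3′ and 5′ control probe sets of ACTB, which grows as transcripts are shortened, was 2.87, 2.55 and 2.58 on ibrutinib arrays A, B and C, against 2.68, 2.59 and 2.65 on vehicle arrays A, B and C. Array A had the highest value of the 6, and the group means differed by 0.03 (two-sided exact permutation test, p = 1.0, where 3 arrays against 3 allow no p below 0.1). With this ACTB difference as a covariate, a fit chosen after seeing the data, limma called 0 probe sets at an adjusted p under 0.05, and 2969 were at an unadjusted p under 0.05. Beside a named gene at an unadjusted p under 0.05, the value without array A is given where that p was lost or the value shrank by more than 1.5 times.

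**Figure D1:**
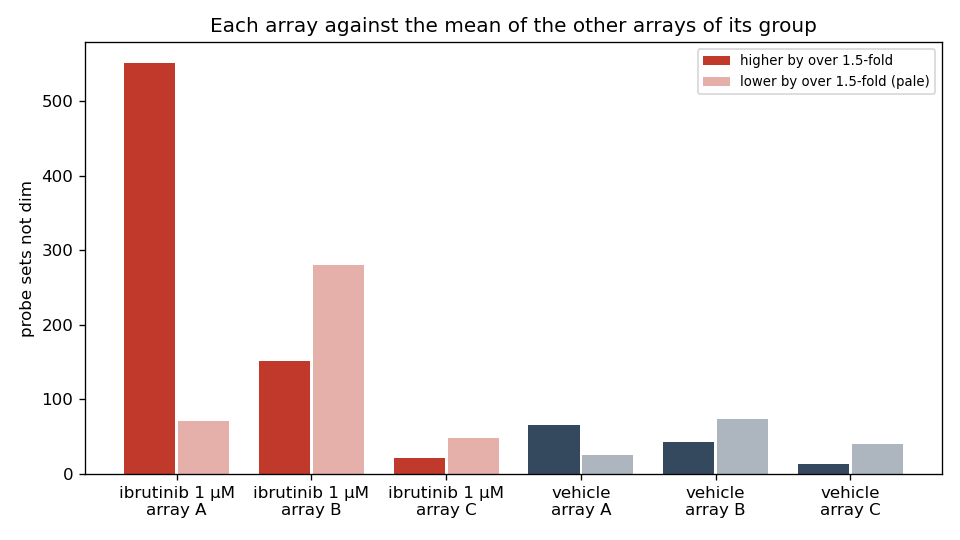
For each of the 6 arrays, the number of probe sets not dim whose log2 intensity lies more than 1.5-fold above (dark bars) or below (pale bars) the mean of the other arrays of its group, with ibrutinib 1 μM on the left and vehicle on the right. The bar for ibrutinib array A reaches 551 probe sets above, against 13 to 66 on the vehicle arrays.

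Replicate arrays differed from each other as much as the groups did. The mean absolute log2 difference over probe sets not dim averaged 0.155 over the 9 pairs of an ibrutinib and a vehicle array, against 0.174 over the 3 pairs of ibrutinib arrays and 0.133 over the 3 pairs of vehicle arrays. Without ibrutinib array A the pairs across the groups averaged 0.138. That is within the range of the pairs of vehicle arrays, 0.124 to 0.140.

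The low dose left most transcripts near their vehicle level. The log2 fold changes of the 54613 probe sets had a median of -0.0096 and a standard deviation of 0.130, against a root mean square standard error of 0.120. They ran between -0.81 and 0.87, and 94.1% of them were under 0.25 in size. Only 21 probe sets lay past 1.5-fold and none past 2-fold. With 10 μM ibrutinib, compared with the same vehicle arrays, the standard deviation was 0.285, and 2178 probe sets lay past 1.5-fold and 651 past 2-fold.

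**Figure D2:**
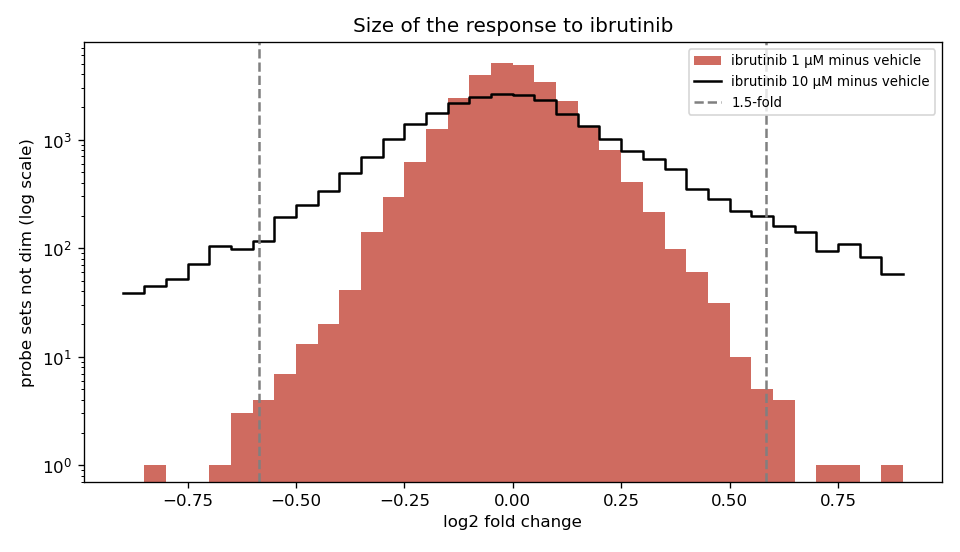
Number of probe sets not dim (log axis) by log2 fold change against vehicle, for ibrutinib 1 μM (filled bars) and ibrutinib 10 μM (black line), drawn between -0.9 and 0.9 only. Dashed lines mark 1.5-fold, and the bars of the 1 μM comparison thin out before them, while the line of the 10 μM comparison runs on past the drawn range.

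No probe set passed multiple testing. With limma 0 of 54613 probe sets had an adjusted p under 0.05 (0%), the smallest adjusted p was 0.282, shared by 9 probe sets, and 33 probe sets were under 0.5. Before adjustment, a p under 0.05 was reached by 2943, of which 1641 lay lower (3% of all) and 1302 higher (2.38%), so 55.8% of them were lower. That share was 49.6% after quantile normalization, 66.8% after centring on the normalization control probe sets and 46.9% without ibrutinib array A, so the balance of lower and higher transcripts turned with the scaling and with 1 array. Unadjusted p-values were spread almost evenly, with 10.7% of them under 0.1 and 9.65% over 0.9. The methods' t-test on the arrays of both groups also called 0 probe sets after adjustment and 2418 at an unadjusted p under 0.05.

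Calls by size and by order of the arrays were few or near even. At 1.5-fold with an unadjusted p under 0.05 there were 19 probe sets, 8 lower (0.0146%) and 11 higher (0.0201%). That number was 40, 88 and 56 without ibrutinib array A, B or C, and 64, 19 and 42 without vehicle array A, B or C. In 2819 probe sets (5.16%) all 3 ibrutinib arrays lay below all 3 vehicle arrays, and in 2383 (4.36%) they lay above them. With 3 arrays against 3, a random order separates the groups in either direction with a probability of 0.1. A lack of overlap alone therefore does not mark a response. Counted by gene, 551 genes were lower (2.79%) and 455 higher (2.3%) at an unadjusted p under 0.05. By the order of the arrays, 1021 genes lay below (5.16%) and 964 above (4.87%) all vehicle arrays.

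Different probe sets of a gene gave a partial check of the small values. In 5850 genes with at least 2 probe sets not dim, the 2 brightest had the same sign in 54.3%. The share was 63.0% in the 230 genes whose brightest probe set was at an unadjusted p under 0.05. It was 62.6% in the 668 genes whose brightest probe set had groups that did not overlap. Among the 35 genes picked because both were at an unadjusted p under 0.05, 34 had the same sign. These probe sets were read on the same arrays and are not independent samples.

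The smallest differences that could be detected lay above most of those measured. With the median standard error of 0.112, a log2 difference of 0.24 (1.18-fold) reached an unadjusted p of 0.05, and a true difference of 0.34 (1.26-fold) would reach it with 80% power. To pass the first step of the adjustment, where a lone probe set needs an unadjusted p of 9.16e-07, the difference had to be 0.95 (1.93-fold), or 1.11 (2.16-fold) for 80% power. When many probe sets change the adjustment is milder: with 10 μM ibrutinib, 5467 probe sets (10%) were called, at unadjusted p-values up to 0.00500. At that p, 0.37 (1.30-fold) would be enough and 0.48 (1.39-fold) would be found with 80% power. The limits depended on brightness. When the probe sets were divided by mean intensity into 5 groups of equal size, the limit at 80% power and an unadjusted p of 0.05 was lowest in the brightest group, 0.26, and highest in the middle group, 0.38.

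**Figure D3:**
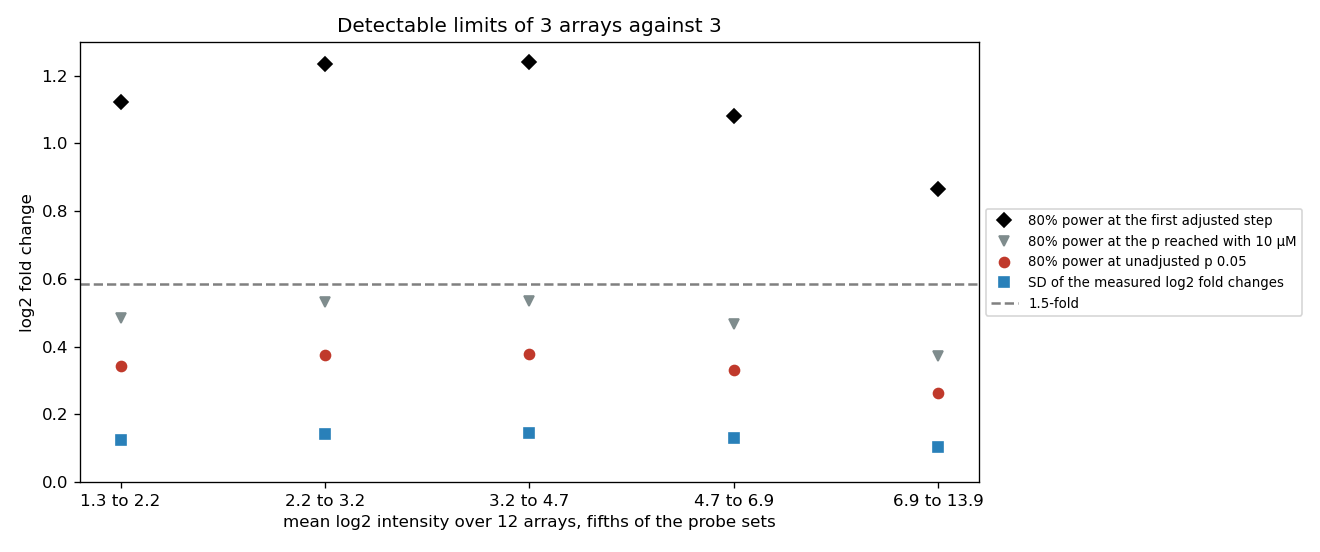
Log2 fold change found with 80% power, for 5 groups of probe sets by mean log2 intensity over the 12 arrays, at the first step of the adjustment (diamonds), at the p reached in the 10 μM comparison (triangles) and at an unadjusted p of 0.05 (circles), with the standard deviation of the measured log2 fold changes (squares). The squares lie below all limits in each group, and the diamonds lie above the dashed line of 1.5-fold.

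The arrays also bounded what could have been missed. The 95% confidence interval of the fold change lay inside 1.5-fold in either direction for 52412 probe sets, 96.0% of all, and inside 2-fold for 99.96%. Among probe sets not dim, 26294 (96.3%) lay inside 1.5-fold, and in the dimmest of the 5 intensity groups 98.0% did. RMA compresses changes at low intensity, so for dim probe sets the interval bounds the measured value and not the transcript. No interval lay wholly past 1.5-fold. For most probe sets not dim a change above 1.5-fold thus lies outside the interval, whereas a lone change under 1.93-fold could not pass the adjustment at the median standard error.

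Although no gene passed the adjusted test, a small set of transcripts stood at the edge of the distribution with arrays that did not overlap. The 12 lowest and 12 highest genes of this kind are described next, in order of size and role. Their order was set by the values themselves, so it is a description. In 21 of these 24 genes the unadjusted p stayed under 0.05 whichever of the 6 arrays was left out. MYH11, CASP8 and C12orf42 were the exceptions. The 24 genes were picked on these same 6 arrays for large values without overlap. The count of 21 is thus partly fixed by the choice and does not measure stability.

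Among the lowest were genes of the B-cell surface and of antigen handling. TNFRSF17 encodes BCMA, a receptor for the survival factors BAFF and APRIL. Its log2 intensity was 7.22, 7.24 and 7.21 on ibrutinib arrays A, B and C, against 7.83, 8.03 and 7.74 on the vehicle arrays. The ibrutinib arrays were nearly equal and lay 0.50 below the lowest vehicle array, with a log2 fold change of -0.64 ± 0.09 (adjusted p = 0.282 with limma).

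LAPTM5, a lysosomal membrane protein of blood cells that promotes the breakdown of antigen receptors, was read by 2 probe sets. On the brighter of them it had 8.67, 8.78 and 8.71 with ibrutinib, against 9.31, 9.39 and 9.23 with vehicle, a log2 fold change of -0.59 ± 0.09. On the other it had 7.75, 7.96 and 7.79 with ibrutinib, against 8.36, 8.67 and 8.32 with vehicle, and -0.62 ± 0.10. In both probe sets every ibrutinib array lay below every vehicle array, and the adjusted p of limma was 0.282 in each.

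HLA-DOB encodes the beta chain of HLA-DO, which restrains peptide loading of MHC class II molecules in B cells. It measured 5.94, 6.25 and 6.31 with ibrutinib, against 6.77, 6.95 and 6.73 with vehicle. Array A was the lowest of the ibrutinib arrays, and the groups were 0.42 apart at their nearest. The log2 fold change was -0.65 ± 0.13 (adjusted p = 0.413), and it was -0.53 without ibrutinib array A.

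FAM111B, a protease-like protein, had 8.87, 8.87 and 8.86 with ibrutinib, against 9.51, 9.57 and 9.30 with vehicle, a log2 fold change of -0.59 ± 0.10 (adjusted p = 0.282). Its second probe set gave -0.51 ± 0.11. The 3 ibrutinib arrays were nearly equal, and the groups did not overlap in either probe set.

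SLAMF1, a self-binding receptor of activated lymphocytes, had a log2 fold change of -0.53 ± 0.13, and CD180, a Toll-like receptor relative on B cells, one of -0.42 ± 0.14. A second probe set of SLAMF1 that was not dim gave -0.20 ± 0.14. HBEGF, a ligand of the EGF receptor, was at -0.44 ± 0.09, with -0.39 on a second probe set that was not dim. The other genes of this group were QPCT (-0.46), a glutaminyl cyclase, PMEPA1 (-0.44, and -0.19 with overlap on a second probe set not dim), an inhibitor of TGF-beta signaling, PBX4 (-0.50), a homeodomain factor, and KRTAP1-3 (-0.52), a hair keratin-associated protein. Their adjusted p in limma ran between 0.413 and 0.908.

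MYH11, a heavy chain of smooth muscle myosin, was less certain. Its brightest probe set had 8.18, 8.22 and 8.03 with ibrutinib, against 8.76, 8.54 and 8.72 with vehicle, but its standard error over the 12 arrays was 0.34. The log2 fold change of -0.53 had an adjusted p of 0.920 in limma. Its unadjusted p was above 0.05 whichever of the 6 compared arrays was left out. With limma on the 2 groups alone, or without 10 μM array A, all 24 genes were under 0.05, MYH11 included. Another of its 7 probe sets gave -0.65 ± 0.13 (adjusted p = 0.376). The log2 fold changes over the 7 probe sets ran between -0.65 and -0.01.

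Among the highest, MIR17HG led. It is the host transcript of the miR-17-92 cluster of microRNAs, and its probe set reads the host, not the mature microRNAs. It had 5.44, 4.76 and 5.29 with ibrutinib, against 4.40, 4.15 and 4.34 with vehicle. The ibrutinib arrays were spread more widely than the vehicle arrays, with array B the lowest of the 3, yet all lay above vehicle, and the log2 fold change was 0.87 ± 0.16, or 1.82-fold (adjusted p = 0.349 with limma).

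WASF3, a subunit of a WAVE complex that starts actin branching, had the smallest unadjusted p of all, 5.24e-06. It measured 6.81, 6.91 and 6.68 with ibrutinib, against 6.29, 6.18 and 6.17 with vehicle, a log2 fold change of 0.59 ± 0.08 with groups 0.39 apart and an adjusted p of 0.282.

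PDE4B, a phosphodiesterase that breaks down cyclic AMP, had 6.04, 6.02 and 5.90 with ibrutinib, against 5.49, 5.31 and 5.40 with vehicle. The log2 fold change was 0.59 ± 0.10 (adjusted p = 0.330), without overlap, and a second probe set that was not dim gave 0.44 ± 0.18 with overlapping arrays. NAV3, a microtubule-guiding protein, was at 0.59 ± 0.11 on its brightest probe set and at 0.44 ± 0.14 on another. On that other probe set the means were 3.74 with ibrutinib and 3.31 with vehicle, both under 3.87. The 3 dim probe sets of NAV3 lay between -0.08 and -0.05, so the median over the 5 was -0.053.

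ELOVL6, an elongase of saturated fatty acids, was higher on all 3 of its probe sets. The brightest had 9.76, 9.31 and 9.38 with ibrutinib, against 8.98, 8.92 and 8.99 with vehicle, a log2 fold change of 0.52 ± 0.11 (adjusted p = 0.623), and the others gave 0.40 and 0.36. Array A was the highest, and the groups did not overlap in any of the 3 probe sets.

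FAM43A had a log2 fold change of 0.45 ± 0.08 (adjusted p = 0.282), with -0.11 ± 0.11 on a second probe set that was not dim, and USP53, a protein of the deubiquitinase family, one of 0.53 ± 0.09 (adjusted p = 0.330), with 0.20 and 0.30 on its other probe sets not dim, whose arrays overlapped. TLCD1, a membrane lipid regulator, was at 0.61 ± 0.18, KLHL14, an adaptor of a ubiquitin ligase, at 0.52 ± 0.13, YPEL2 at 0.47 ± 0.14 and C12orf42 at 0.46 ± 0.16. For TLCD1, vehicle array C was far below the other vehicle arrays, with 4.17 against 4.96 and 5.07, and without it the log2 fold change was 0.33. KLHL14 was at 0.34 without the same array. C12orf42 was at 0.34 without ibrutinib array C, with an unadjusted limma p of 0.0597. Its means were 3.52 with ibrutinib and 3.06 with vehicle, both under 3.87. It counted as not dim through arrays of the other groups, with 5.22, 5.06 and 5.03 on those of 10 μM.

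CASP8, the caspase that starts death receptor signaling, rested in part on array A. It had 7.55, 7.03 and 6.94 with ibrutinib, against 6.83, 6.41 and 6.80 with vehicle, a log2 fold change of 0.49 ± 0.17. Without ibrutinib array A this was 0.31, with an unadjusted limma p of 0.0765, and without vehicle array B it was 0.36 with a p of 0.0640. A second probe set that was not dim gave -0.04.

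**Figure D4:**
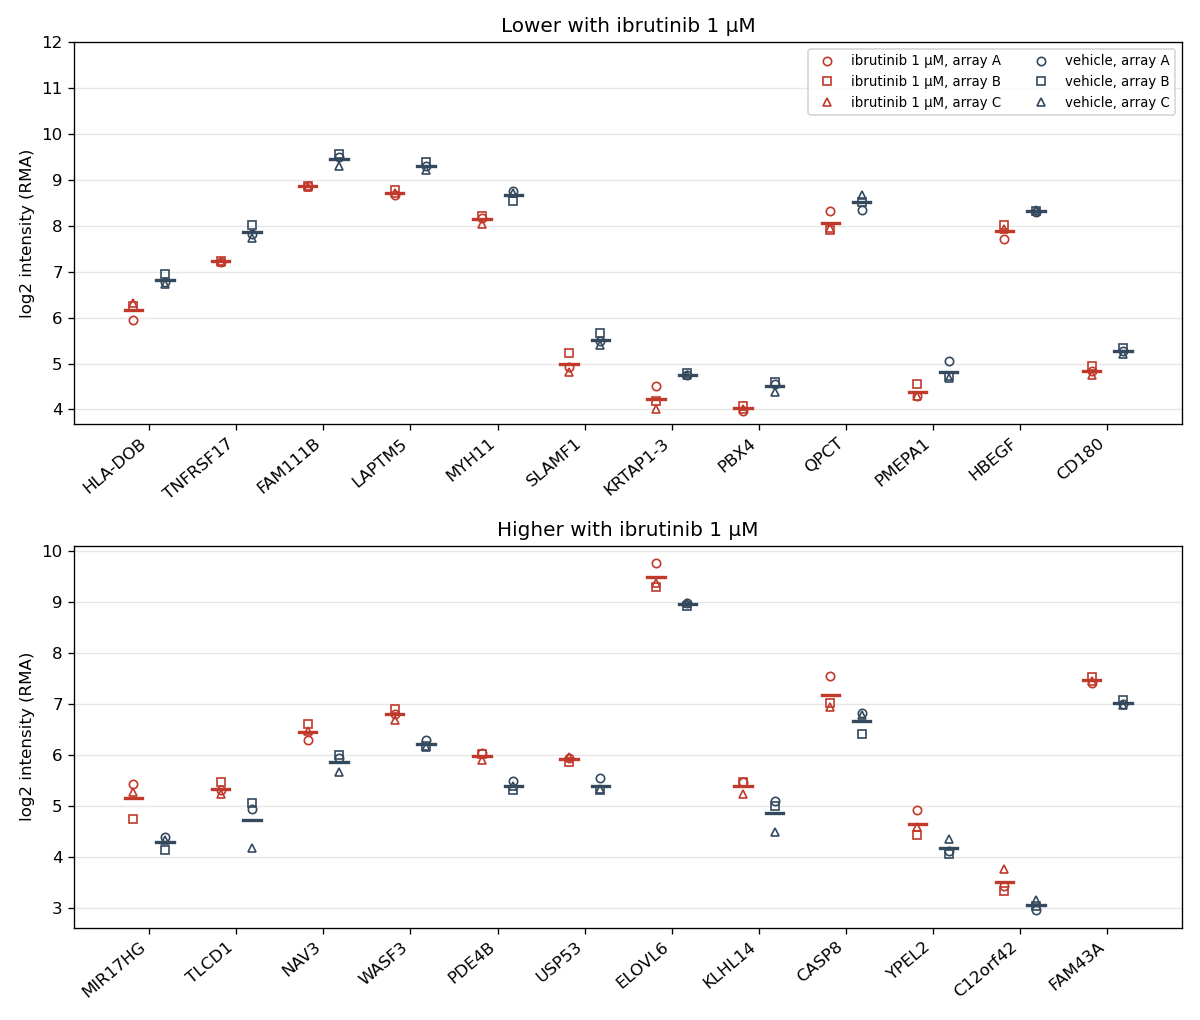
Log2 RMA intensity of the 12 lowest genes (upper panel) and the 12 highest genes (lower panel) among genes not dim whose groups did not overlap, with ibrutinib 1 μM on the left and vehicle on the right of each pair. Symbols mark arrays A, B and C, and short lines mark group means. The lines of a pair are between 0.42 and 0.87 apart.

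Some of the largest values came from probe sets outside that list. Of the 19 probe sets past 1.5-fold with an unadjusted p under 0.05, 15 had groups that did not overlap and 15 had a single gene symbol, for 14 genes. STXBP6, a SNARE-binding protein of vesicle fusion, had 5.0, 4.82 and 4.73 with ibrutinib, against 4.21, 4.19 and 3.88 with vehicle, a log2 fold change of 0.76 ± 0.13 (adjusted p = 0.282). Its brighter probe sets gave 0.08 and 0.22. ETV6, a repressor of the ETS family, had 6.78, 6.69 and 6.55 with ibrutinib, against 6.31, 5.91 and 5.98 with vehicle, a log2 fold change of 0.60 ± 0.11 (adjusted p = 0.330). The log2 fold changes of its 5 probe sets, all above 0, ran between 0.09 and 0.60.

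CHD1, a chromatin remodeler, was at 0.60 ± 0.19 with overlapping arrays, and at 0.41 ± 0.09 without overlap on its other probe set. SUCLG2, a mitochondrial enzyme subunit, was at 0.63 ± 0.26 with overlap. Ibrutinib array A had 8.11 there against 6.78 and 7.15 on arrays B and C, and without array A the value was 0.25, with an unadjusted limma p of 0.184, and without vehicle array B it was 0.49 with a p of 0.109. The lowest value of all belonged to probe set 236099_at, which has no gene symbol in the annotation used here. It had 7.16, 7.26 and 7.20 with ibrutinib, against 7.95, 8.09 and 7.99 with vehicle, a log2 fold change of -0.81 ± 0.14 (adjusted p = 0.282) with groups far apart. Probe set 220038_at, which is annotated with several genes, had 4.73, 4.32 and 4.43 with ibrutinib, against 3.89, 3.74 and 3.74 with vehicle, a log2 fold change of 0.71 ± 0.13 (adjusted p = 0.332). The arrays of the 2 remaining probe sets with no single gene, at 0.61 and -0.59, overlapped. CCRL2 (-0.48 ± 0.09), an atypical chemokine receptor, and EP300-AS1 (0.52 ± 0.10), an antisense transcript, had groups that did not overlap but were dim.

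Whether any of these counted as called depended on how the spread was modelled. When the prior variance of limma was allowed to follow intensity, 13 probe sets had an adjusted p under 0.05, 6 lower and 7 higher, for 11 genes and 236099_at. The lower ones were FAM111B and LAPTM5 (adjusted p = 0.00560 each), the other LAPTM5 probe set (0.0227), TNFRSF17 (0.0152), 236099_at and BIK (0.0250 each). The higher ones were WASF3 (0.00560), FAM43A (0.0134), ETV6 (0.0250), STXBP6 (0.0289), ELOVL6 (0.0335), PDE4B (0.0356) and NAV3 (0.0361). Each of these had non-overlapping arrays. BIK, a death-promoting BH3-only protein, had 11.38, 11.46 and 11.53 with ibrutinib, against 11.69, 11.75 and 11.76 with vehicle, a log2 fold change of -0.28 ± 0.07 (adjusted p = 0.879 without the trend). The size of the fold changes was the same in both fits, and the standard errors and p-values differed. The p-values did not follow the standard errors alone. For TNFRSF17 the standard error was 0.095 in both fits, while its unadjusted limma p was 1.39e-06 with the trend and 1.10e-05 without it.

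The values of the same genes with 10 μM ibrutinib are given beside these, each against the same 3 vehicle arrays, so the comparisons share their control. The log2 fold changes with 10 μM were 2.78 for WASF3, 2.69 for PDE4B, 2.77 for FAM43A, 2.92 for STXBP6, 2.34 for ETV6 and 1.72 for ELOVL6. They were -2.10 for TNFRSF17, -2.50 for HLA-DOB and -1.43 for LAPTM5. For FAM111B the value with 10 μM was -0.57, for MIR17HG 0.76 and for PBX4 -0.45, against -0.59, 0.87 and -0.50 with 1 μM. KRTAP1-3 was at -0.25 with 10 μM (adjusted p = 0.185). These are values at 2 doses, and no form of dose response was fitted.

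Genes with the largest values at 10 μM were picked on the vehicle arrays that also serve at 1 μM, so some of their values are only set side by side. TJP1, a tight junction scaffold, was at 4.45 with 10 μM and at 0.11 ± 0.11 with 1 μM. BMPR1B, a receptor of bone morphogenetic proteins, was at 4.11 with 10 μM and at -0.05 ± 0.16 with 1 μM. Its mean intensities were 2.78 with 1 μM and 2.82 with vehicle, both under 3.87. CD28, a costimulatory receptor, was at -3.19 with 10 μM and at -0.07 ± 0.10 with 1 μM. PTPRE, a tyrosine phosphatase, had 5.02, 5.26 and 5.22 with 1 μM, all above vehicle with 4.93, 4.69 and 4.55, and a log2 fold change of 0.44 ± 0.10 (adjusted p = 0.716), against 3.45 with 10 μM. MUC19, a gel-forming mucin, was at -0.34 ± 0.10 without overlap with 1 μM and at -3.69 with 10 μM.

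Genes of BCR signaling lay close to vehicle at 1 μM. Of 45 measured genes, 0 were lower and 1 was higher at an unadjusted p under 0.05, 4 lay below and 4 above all vehicle arrays, and the median log2 fold change was -0.02, against -0.01 over all genes. Over all genes 2.79% were lower and 2.3% higher at that p, and 5.16% lay below and 4.87% above all vehicle arrays. With 10 μM the median was -0.18, and by limma 16 were lower and 8 higher at an adjusted p under 0.05, against 5.82% lower and 6.71% higher over all genes. BTK itself had 9.09, 9.22 and 9.32 with ibrutinib, against 9.28, 9.09 and 9.27 with vehicle, a log2 fold change of -0.01 ± 0.09 with overlapping arrays and a 95% interval of -0.19 to 0.17.

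The receptor and its proximal chain showed the same. SYK, a proximal kinase of the cascade, was at 0.08 ± 0.07, and LYN, a kinase of the Src family, at -0.12 ± 0.08. BLNK, the adaptor that brings Btk to its substrate, was at 0.06 ± 0.08, and PLCG2, that substrate, at -0.03 ± 0.09. CD79A and CD79B, the signaling chains of the receptor, were at -0.11 ± 0.09 and -0.03 ± 0.08. VAV3, an exchange factor for Rac, was the gene counted as higher, with 7.05, 7.0 and 7.07 with ibrutinib, against 6.79, 6.77 and 6.81 with vehicle, a log2 fold change of 0.25 ± 0.07 (adjusted p = 0.908) and no overlap. CD22, an inhibitory co-receptor, was at -0.18 ± 0.08 without overlap.

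None of the 8 measured kinases with the reactive cysteine was at an unadjusted p under 0.05, and the intervals of all 8 lay inside 1.5-fold. Their log2 fold changes ran between -0.18 for TXK and 0.08 for EGFR, both read as transcript and not as kinase activity. Genes induced early after BCR engagement counted 0 lower and 0 higher of 31, with a median of -0.03. Of 20 genes driven by ERK, 1 was lower, EPHA2, which was dim, and 0 were higher. Of 28 NF-kB target genes, 1 was lower and 2 were higher, SOD2 (0.22 ± 0.10) and CCR7, which was dim. The shares over all genes were 2.79% lower and 2.3% higher. SOD2 and CCR7 were at an unadjusted p above 0.05 in at least 4 of the 6 fits that left out 1 array, at 0.18 to 0.24 for SOD2, which was at 0.22 without ibrutinib array A, and at 0.21 to 0.30 for CCR7. The lower one was IRF4, a B-cell and plasma cell transcription factor. It had 8.33, 8.54 and 8.51 with ibrutinib, against 8.90, 8.76 and 8.75 with vehicle, a log2 fold change of -0.34 ± 0.10 (adjusted p = 0.908). Its 3 probe sets ran between -0.34 and -0.07.

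The MHC class II and plasma cell lists had the largest shares of lower members. Of 16 genes of MHC class II presentation, 3 were lower at an unadjusted p under 0.05 and 0 higher, 5 lay below all vehicle arrays and 0 above, and the median log2 fold change was -0.09. Over all genes 2.79% were lower and 5.16% lay below all vehicle arrays. The 3 lower genes were HLA-DOB, HLA-DQA1 (-0.39 ± 0.14), whose arrays overlapped, and HLA-DQB1 (-0.22 ± 0.09). The 7 probe sets of HLA-DQB1 ran between -0.27 and 0.14, and a dim second probe set of HLA-DOB was at 0.11 ± 0.08. In the list 12 of 16 members lay below 0, and the highest was RFXAP at 0.33. HLA-DQA1 was at -0.28, -0.36 and -0.31 without ibrutinib array A, vehicle array A or vehicle array B, and HLA-DQB1 at -0.17 and -0.13 without ibrutinib array C or vehicle array B, each with an unadjusted p above 0.05. The count was 6 after quantile normalization, 5 after centring on the control probe sets and 2 without ibrutinib array A, with 0 higher each time. Genes of the HLA family are close relatives, and probes can read more than 1 of them. CD74, the invariant chain, was at -0.20 ± 0.09 without overlap. Of 16 plasma cell genes, 3 were lower and 0 higher: TNFRSF17, IRF4 and CAV1, which was dim. The lower count of this list was 2 after quantile normalization. It was 3 after centring on the control probe sets and 3 without ibrutinib array A. CAV1 was at an unadjusted p above 0.05 without ibrutinib array C (-0.15), vehicle array A (-0.21) or vehicle array B (-0.14).

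Death and survival genes lay near vehicle with a few exceptions. BCL2, the anti-apoptotic protein, had 5.38, 5.50 and 5.50 with ibrutinib, against 5.61, 5.79 and 5.74 with vehicle, a log2 fold change of -0.26 ± 0.09 (adjusted p = 0.916), while its 4 probe sets ran between -0.26 and 0.13. It was at -0.22 both without ibrutinib array A and without vehicle array B, with unadjusted p-values of 0.0580 and 0.0625. MCL1 was at -0.02 ± 0.08, XIAP at 0.00 ± 0.08 and BCL2L1 at -0.03 ± 0.09, with overlapping arrays. The 6 probe sets of MCL1 ran between -0.02 and 0.25, and the 4 of BCL2L1 between -0.14 and 0.05. Of 25 pro-death genes, BIK was lower and CASP8 and FAS were higher at an unadjusted p under 0.05. Of 22 p53 target genes, 0 were lower and 3 higher, with a median of 0.03. Over all genes 2.79% were lower and 2.3% higher. FAS, the death receptor CD95, had 6.45, 6.35 and 6.37 with ibrutinib, against 6.02, 6.11 and 6.09 with vehicle, a log2 fold change of 0.32 ± 0.08 (adjusted p = 0.778) without overlap. The 5 probe sets of FAS, 3 of them not dim, ran between 0.01 and 0.44. TP53INP1, a stress-induced autophagy protein, was at 0.29 ± 0.09 and GADD45A, a growth arrest protein, at 0.26 ± 0.09, or 0.16 with an unadjusted p of 0.0712 without ibrutinib array A. Without that array the pro-death list had 1 lower and 1 higher gene and the p53 list 0 lower and 2 higher.

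Proliferation genes showed no member past the unadjusted threshold. This held for 43 genes of DNA replication, 40 of mitosis, 18 of the G1 phase and 28 of MYC and ribosome biogenesis, with medians between -0.03 and 0.01. Without ibrutinib array A, 1 gene of DNA replication was higher and 1 of the G1 phase lower. MKI67, the Ki-67 antigen, was at -0.13 ± 0.10, and its 4 probe sets, all not dim, ran between -0.13 and 0.16. In the PI3K and mTOR list 1 of 34 genes was lower and 1 higher, AKT1 was at -0.06 ± 0.09 and MTOR at 0.02 ± 0.08. Of 31 FOXO target and quiescence genes, 2 were lower and 2 higher, among them MXI1, a MYC antagonist, at 0.18 ± 0.08. The shares over all genes were 2.79% lower and 2.3% higher. MXI1 lay between 0.16 and 0.17, with an unadjusted p above 0.05, without ibrutinib array B or C or vehicle array A or C.

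The other lists had counts as low, beside 2.79% lower and 2.3% higher over all genes. Of 30 genes of the ATF4 and amino acid response, 1 was lower, CHAC1 (-0.27 ± 0.11), an enzyme of glutathione breakdown, and 0 were higher. Without ibrutinib array A CHAC1 was at -0.15 with an unadjusted p of 0.158, which left 0 genes lower in that list, and without vehicle array B it was at -0.22 with a p of 0.0960. With 10 μM CHAC1 was at -1.52. Of 12 genes of fatty acid synthesis, ELOVL6 was higher and LPIN1, a phosphatidate phosphatase, lower at -0.23 ± 0.08, against 1.13 with 10 μM. Of 41 interferon response genes 2 were lower and 2 higher. Of 25 germinal centre genes 1 was higher, MME (0.21 ± 0.07), the surface peptidase CD10, without overlap. CXCR4, the receptor for CXCL12, was at 0.02 ± 0.09, and of 30 adhesion and migration genes 1 was lower, ITGAL, a chain of the integrin LFA-1, at -0.26 ± 0.11, and 1 higher, CCR7 (0.30 ± 0.13), a chemokine receptor, which was dim. Without ibrutinib array A ITGAL was at -0.16 with an unadjusted p of 0.158, and that list had 0 genes lower and 2 higher. ITGAL also lay at an unadjusted p above 0.05 without ibrutinib array C (-0.27), vehicle array B (-0.26) or vehicle array C (-0.24). PTPN11, which encodes the phosphatase SHP2, was at 0.12 ± 0.09 with overlapping arrays. The lists of cholesterol synthesis, glycolysis, unfolded protein, heat shock, NRF2, xenobiotic response and lysosome genes had at most 1 member lower and 2 higher each. Without ibrutinib array A the unfolded protein list had 2 lower, the germinal centre list 1 lower and 2 higher, and the interferon list 1 lower and 2 higher.

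The 34 lists together, markers and housekeeping genes included, held 694 measured genes. Of these, 23 were lower and 15 higher at an unadjusted p under 0.05, 5.48% together, against 5.09% of all 19775 genes. Their median log2 fold change was -0.0145, against -0.0097 over all genes. In bulk samples such as these, fewer cells that carry a transcript and less of it per cell cannot be told apart.

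**Figure D5:**
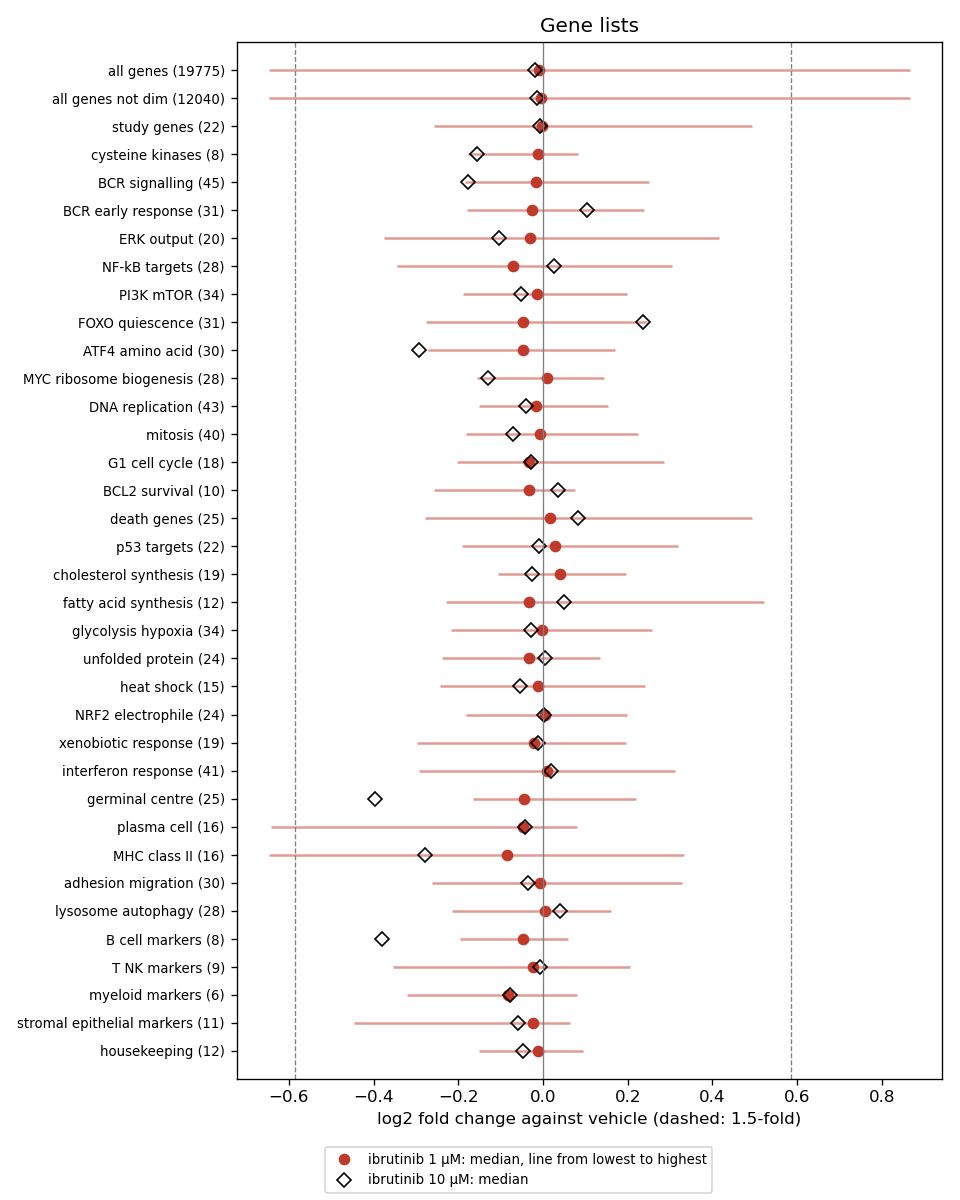
Gene lists, with the number of measured genes in brackets, against the log2 fold change. Red circles and lines give the median and the range from lowest to highest member with ibrutinib 1 μM against vehicle, and black diamonds the median with ibrutinib 10 μM against the same vehicle arrays. All red medians lie between -0.09 and 0.04, and besides the lines of all genes only those of the MHC class II and plasma cell lists reach the dashed line of 1.5-fold.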

How the data were processed

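Total RNA of OCI-Ly7 cells was hybridized as biotinylated cRNA to Affymetrix U133 Plus 2.0 arrays, 1 array per sample, 12 in all. The deposited values are intensities on the linear scale, made by the authors with RMA (background correction, normalization between arrays and summary per probe set), whose version is not given in the sources used here. RMA limits differences at low intensity. Log2 was taken with nothing added.

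limma 3.58.1 (R 4.3.3) was fitted with 1 mean per group over 4 groups and eBayes (8 residual and 5.43 prior degrees of freedom), and p-values are two-sided. The paper's thresholds, 1.5-fold and a p under 0.05, were applied with p read as unadjusted. Detectable limits are multiples of the moderated standard error from the noncentral t distribution (scipy 1.17.1). The number of arrays limits the precision. The script was tested on simulated data.

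The annotation gives 41091 probe sets 1 gene symbol, 1801 several and 11721 none. Members of the comparison, gene lists (34) and tests were chosen with earlier results of these data known. Genes named are the 12 highest and 12 lowest not dim without overlap, those past 1.5-fold at an unadjusted p under 0.05, the 10 with the smallest p and the 10 with the widest gap, up to 3 per list with the smallest p, all measured study genes and cysteine kinases, and the 10 highest and 10 lowest with 10 μM. Some listed genes were not analysed here. Housekeeping genes counted 0 lower and 0 higher of 12.

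Alternatives were other limma priors, array weights, the 2 groups alone, the methods' t-test, the sample letter as a replicate block, 2 scalings, 2 filters and leaving out each array. A covariate for the ACTB difference was chosen after seeing the data.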

Additional observations from a re-analysis of the deposited data

How the results depend on the processing

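In every alternative except the intensity trend (13 probe sets), limma and the methods' t-test called 0 probe sets at an adjusted p under 0.05, and the smallest adjusted p ran between 0.0566 with 1 probe set per gene and 0.925 without vehicle array B. With the sample letter as a replicate block it was 0.280, and 2899 probe sets were at an unadjusted p under 0.05. Deviations of arrays with the same letter correlated at -0.04, 0.16 and -0.01 for A, B and C. The labels do not say whether a letter marks a shared culture or batch, and these values cannot decide it. Counts at an unadjusted p under 0.05 (2943 in all, 1641 lower, 1302 higher) were 4443 in all and 2125 higher with array weights, 1694 in all and 792 lower without dim probe sets, and 1153 in all, 631 lower and 522 higher with 1 probe set per gene, where fewer were tested. Leaving out an array gave 2243 to 3798 in all, 1265 to 2072 lower and 972 to 1726 higher.

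Counts past 1.5-fold with an unadjusted p under 0.05 (19 in all, 8 lower, 11 higher) were 29 in all and 20 lower with array weights, 9, 4 and 5 with 1 probe set per gene, and 7 higher with the methods' t-test and with centring on the control probe sets. Leaving out an array gave 19 to 88 in all, 8 to 28 lower and 11 to 69 higher, highest in all without ibrutinib array B. Probe sets without overlap (5202 in all, 2819 lower, 2383 higher) were 2856, 1329 and 1527 without dim probe sets and 1985, 1021 and 964 with 1 probe set per gene. Leaving out 1 of the 6 arrays compared gave 9309 to 11922 in all, 4660 to 6950 lower and 4246 to 5756 higher, since fewer arrays separate more easily. Leaving out an array of another group leaves 5202, 2819 and 2383. The spread of log2 fold changes ran between 0.130 and 0.152, and the share of intervals inside 1.5-fold between 91.1% and 96.2%, when an array was left out. Of the 24 genes with the largest non-overlapping values, 22 to 24 kept their sign at an unadjusted p under 0.05 when an array was left out, 20 with the methods' t-test, and 23 or 24 in the other alternatives. They were picked on the same arrays, so these counts are partly fixed by the choice.

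With the median over the probe sets of a gene in place of the brightest, NAV3 was at -0.053, SESN3 at -0.016 and SQLE at -0.061, against 0.59, 0.20 and 0.16. The ACTB covariate left 0 calls and 2969 probe sets at an unadjusted p under 0.05. Where a count moved, the cause was not tested. Low intensity limits the dim probe sets, whose changes RMA compresses.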
